A study of Homo sapiens with 6 samples.

Results

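Solute carriers (SLC) are membrane proteins that move small molecules across the plasma membrane and the membranes of organelles, driven by gradients of the substrate or of a coupled ion. Of the 20356 genes in the series' expression table, 334 had a symbol made of SLC, a number, the letter A and a number, and 177 of these were expressed and are described here. SLC genes with other letters, such as SLC35B1 and SLC35E1, are not among the 334 and are given at the end with other transport genes. They were chosen by a mean of at least 1 FPKM (fragment counts normalized to transcript length and to the mapped fragments of the library) in at least 1 of the groups, so the level itself selected them and is given as a description. The other 157 genes lay below that level in both groups, and 36 of the 334 were listed at 0 in every library. Just inside the limit were SLC2A12 at 1.05 FPKM and SLC15A3 at 1.08 FPKM in their higher group, and just outside it were SLC22A31 at 0.983 FPKM and SLC27A2 at 0.909 FPKM. The members were sorted by known substrate into 8 classes: 22 amino acid transporters, 18 for glucose, other sugars and lactate, 23 for metals, 6 for nucleosides, nucleobases and nucleotides, 39 mitochondrial SLC25 carriers, 25 for inorganic ions and acid-base balance, 6 for nucleotide sugars and the secretory pathway, and 38 for vitamins, lipids, organic ions and other substrates.

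RNA sequencing compared an osimertinib-resistant derivative of H1975, called H1975 OR and cultured in the continued presence of 1 µM osimertinib (3 libraries), with its parent H1975, cultured without the drug (3 libraries). H1975 is an established human lung adenocarcinoma line with mutant epidermal growth factor receptor (EGFR), and osimertinib is an irreversible EGFR kinase inhibitor. Both were grown in serum-supplemented RPMI-1640, and messenger RNA libraries were made from whole-cell RNA. The labels do not say how the resistant derivative was selected, whether it is a clone, or whether the libraries of a group came from separate cultures. All p-values therefore measure the spread among 3 libraries of 1 parental line and 3 of 1 derivative, which may be technical, and the effect of resistance cannot be told apart from that of the drug in the medium.

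Proliferating cancer cells depend on carriers for glutamine and other amino acids, for glucose uptake and lactate export, and for zinc and iron. Amino acid transporters work partly as exchangers, in which glutamine taken up by sodium-coupled carriers is traded for leucine or cystine, and several of their genes are targets of the stress-response factor ATF4. Zinc is brought into the cytosol by the SLC39 (ZIP) family and removed from it by the SLC30 (ZnT) family, and the SLC25 family links the cytosol with the mitochondrial matrix.

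The most frequent ratio of coverage to FPKM in a library, shared within 1% by 11.9 to 12.6% of its genes, put the depth at about 9.72 to 11.47 mapped gigabases for the H1975 OR libraries and 10.83 to 14.73 for the H1975 libraries, and each library had 11410 to 11555 genes at 1 FPKM or more. Rank correlations were 0.995 to 0.996 within a group and 0.846 to 0.854 between the groups. They were taken over the 12107 genes averaging 1 FPKM or more in at least 1 group and are given as a description. Of 6 epithelial markers, 5 reached 1 FPKM in H1975 OR and 6 in H1975, with summed levels of 915 to 992 FPKM in H1975 OR and 2949 to 3466 FPKM in H1975. EPCAM was only just at that level in H1975 OR, with 1.28, 0.985 and 0.807 FPKM, against a mean of 211 FPKM in H1975. KRT19 averaged 4.58 FPKM in H1975 OR and 574 FPKM in H1975. Every one of the 6 averaged lower in H1975 OR, KRT8 the least, at 384 FPKM against 508 FPKM in H1975. The epithelial cadherin gene CDH1 averaged 0.0248 FPKM in H1975 OR and 68.6 FPKM in H1975, and the lung lineage factor NKX2-1 was listed at 0 in every H1975 OR library and averaged 26.7 FPKM in H1975. NAPSA lay under 1 FPKM in both groups, so at most 1 of 3 lung adenocarcinoma markers, in the parental line alone, reached that level. None of 4 leukocyte markers did so in either group, and 1 of 4 fibroblast markers, COL1A1, did in both, at 15.8 FPKM in H1975 OR and 2.45 FPKM in H1975. Of 3 endothelial markers, 2 were found by symbol, and of these CDH5 averaged 1.06 FPKM in H1975 OR and 0.503 FPKM in H1975. The part of this difference in lineage markers in the transporter results below was not tested. In bulk RNA, fewer cells of a type and less RNA per cell cannot be told apart.

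Expressed transporters were more often higher than lower in the resistant cells. The test was limma on log2(FPKM + 1) with Benjamini-Hochberg adjustment over all 12107 genes at 1 FPKM in either group, and a gene was called at an adjusted p under 0.05. Calls are counted only over the 149 members at 1 FPKM in both groups, because a member that entered through its high group had to differ. Of these, 78 were called higher in H1975 OR, or 52.3%, against 38.7% of all 10829 genes at that level in both groups, and 49 were called lower, or 32.9%, against 37.2% of all genes. At a difference of at least 1 on the log2 scale, 22 members were higher, or 14.8%, against 7.66% of all genes, and 9 were lower, or 6.04%, against 6.67% of all genes. The 3 values of each group did not overlap for 128 of the 149 members, or 85.9%, against 77.8% of all genes. The median log2 difference was 0.20 over the members and 0.01 over all genes. The share of members called lower was thus close to that of the whole transcriptome. The remaining 22 members were not called, and 118 of the 149 differed by less than 1 on the log2 scale.

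**Figure D1:**
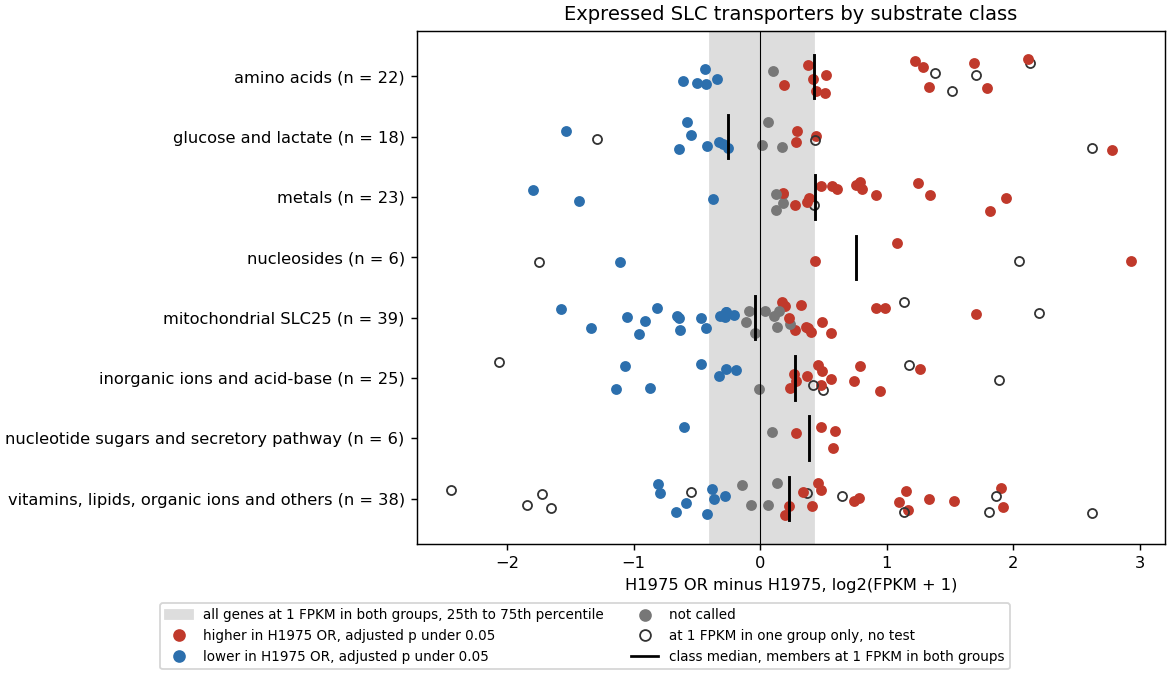
Log2 difference (H1975 OR minus H1975, on log2(FPKM + 1)) of each of the 177 transporters, by substrate class. Filled points are the 149 members at 1 FPKM in both groups (red called higher, blue called lower, grey not called), open points the 28 at 1 FPKM in 1 group only, black bars the class medians over the filled points, and the grey band the 25th to 75th percentile of all genes. Medians lie below 0 for glucose and lactate (−0.25), near 0 for the SLC25 carriers (−0.04) and above 0 for every other class. The median of the nucleoside class rests on 4 members.

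Amino acid transporters were expressed at higher levels in H1975 OR, with neutral amino acid carriers leading. Of the 18 members at 1 FPKM in both groups, 12 rose (66.7%, against 38.7% of all genes), 5 fell (27.8%, against 37.2%) and 1 was not called, with a median log2 difference of 0.43. The summed level of all 22 members was 692 to 745 FPKM in the H1975 OR libraries and 424 to 451 FPKM in the H1975 libraries. The most abundant was SLC38A2 (chr12:46751972-46766650 on GRCh37, as are all gene positions below), the sodium-coupled neutral amino acid transporter SNAT2. It had 244, 263 and 235 FPKM in replicates 1 to 3 of H1975 OR, against 83.4, 73.9 and 71.1 FPKM in those of H1975. Every resistant library lay above every parental one, at a log2 difference of 1.69 ± 0.074 (SE, adjusted p = 5.4e-10). SLC38A2 alone made up most of the difference in the summed level of the class. The related glutamine carrier SLC38A1 (chr12:46576846-46663800) averaged 41.2 ± 1.01 FPKM in H1975 OR and 17.1 ± 1.24 FPKM in H1975 (SD, n = 3 each), a log2 difference of 1.22 ± 0.065 with adjusted p = 3.2e-09. SLC1A5 (chr19:47278140-47291851), the exchanger ASCT2 through which many tumours take up glutamine, stood at 91.6, 101 and 97.9 FPKM in H1975 OR libraries and at 38.1, 39.4 and 36.1 FPKM in H1975 libraries. Its log2 difference was 1.33 ± 0.064, with adjusted p = 1.2e-09 and no overlap between the groups.

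The largest differences among the tested amino acid transporters were in carriers of small neutral amino acids. SLC1A4 (chr2:65215611-65250999), the serine, alanine and cysteine exchanger ASCT1, had 7.73, 7.61 and 7.78 FPKM in H1975 OR, against 1.13, 0.961 and 0.946 FPKM in H1975. Its parental mean was just at the 1 FPKM limit, and its log2 difference was 2.12 ± 0.069 (adjusted p = 3.7e-11). SLC6A9 (chr1:44457172-44497139), the glycine transporter GLYT1, had 17.8, 18.9 and 16.9 FPKM in H1975 OR and 4.96, 4.12 and 4.30 FPKM in H1975, again without overlap, at 1.79 ± 0.074 on the log2 scale (adjusted p = 3.0e-10). It overlaps CCDC24 on the opposite strand, and that gene averaged 1.64 FPKM in H1975 OR and 4.93 FPKM in H1975. SLC43A2, the branched-chain amino acid facilitator LAT4, averaged 8.17 ± 0.654 FPKM in H1975 OR and 2.77 ± 0.310 FPKM in H1975, a log2 difference of 1.28.

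The exchangers that share the SLC3A2 heavy chain did not move together. SLC3A2 (chr11:62623518-62656352), the 4F2 glycoprotein that carries several SLC7 light chains to the membrane, had 92.8, 103 and 103 FPKM in H1975 OR and 73.3, 76.5 and 73.0 FPKM in H1975. The resistant libraries were all higher, at a log2 difference of 0.42 ± 0.064 (adjusted p = 6.4e-05). Its light chain SLC7A11 (chr4:139085251-139163503), which exchanges cystine for glutamate and so feeds glutathione synthesis, had 4.96, 4.34 and 5.75 FPKM in H1975 OR and 3.62, 3.12 and 2.92 FPKM in H1975, and rose by 0.51 (adjusted p = 3.1e-04). The light chain SLC7A5 (chr16:87863629-87903094), the leucine transporter LAT1, had 72.9, 79.3 and 76.9 FPKM in H1975 OR and 104, 105 and 100.2 FPKM in H1975. It was lower in every resistant library, at −0.43 ± 0.061 (adjusted p = 3.2e-05). SLC7A6, another light chain, rose by 0.44, to 17.4 ± 0.904 FPKM in H1975 OR against 12.6 ± 1.13 FPKM in H1975. Of the 4 SLC7 members tested, 2 rose (50%, against 38.7% of all genes) and 2 fell (50%, against 37.2%). The second that fell was the cationic amino acid transporter SLC7A1, given below, which is not among the light chains above.

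The other amino acid transporters that fell were SLC7A1, SLC6A6, SLC38A10 and SLC38A6. The cationic amino acid transporter SLC7A1 averaged 9.91 ± 0.157 FPKM in H1975 OR and 14.4 ± 0.760 FPKM in H1975, at −0.50 ± 0.061 on the log2 scale (adjusted p = 8.3e-06). The taurine transporter SLC6A6 averaged 22.7 ± 1.74 FPKM in H1975 OR and 30.9 ± 2.02 FPKM in H1975, at −0.43 ± 0.073 (adjusted p = 1.4e-04). SLC38A10, an intracellular member of the SNAT family, averaged 16.9 ± 1.97 FPKM in H1975 OR and 26.2 ± 0.148 FPKM in H1975, at −0.61 ± 0.077 (adjusted p = 1.1e-05). By 1 or more on the log2 scale, 6 of the 18 tested members rose (33.3%, against 7.66% of all genes). None of the 5 that fell did so by that much, where 6.67% of all genes did.

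Amino acid transporters at 1 FPKM in only 1 group were all on the H1975 OR side, and these 4 are described without a test. The glutamate transporter SLC1A3 (EAAT1) was listed at 0 in all 3 H1975 libraries and had 2.11, 2.24 and 2.41 FPKM in H1975 OR. The large neutral amino acid facilitator SLC43A1 (LAT3) had 3.13, 3.48 and 4.63 FPKM in H1975 OR, against 0.0575, 0.0776 and 0.0844 FPKM in H1975. SLC7A7, a further light chain of SLC3A2, averaged 3.13 ± 0.270 FPKM in H1975 OR and 0.446 ± 0.0813 FPKM in H1975. The cationic amino acid transporter SLC7A2 averaged 1.91 ± 0.288 FPKM in H1975 OR and 0.111 ± 0.0373 FPKM in H1975.

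**Figure D2:**
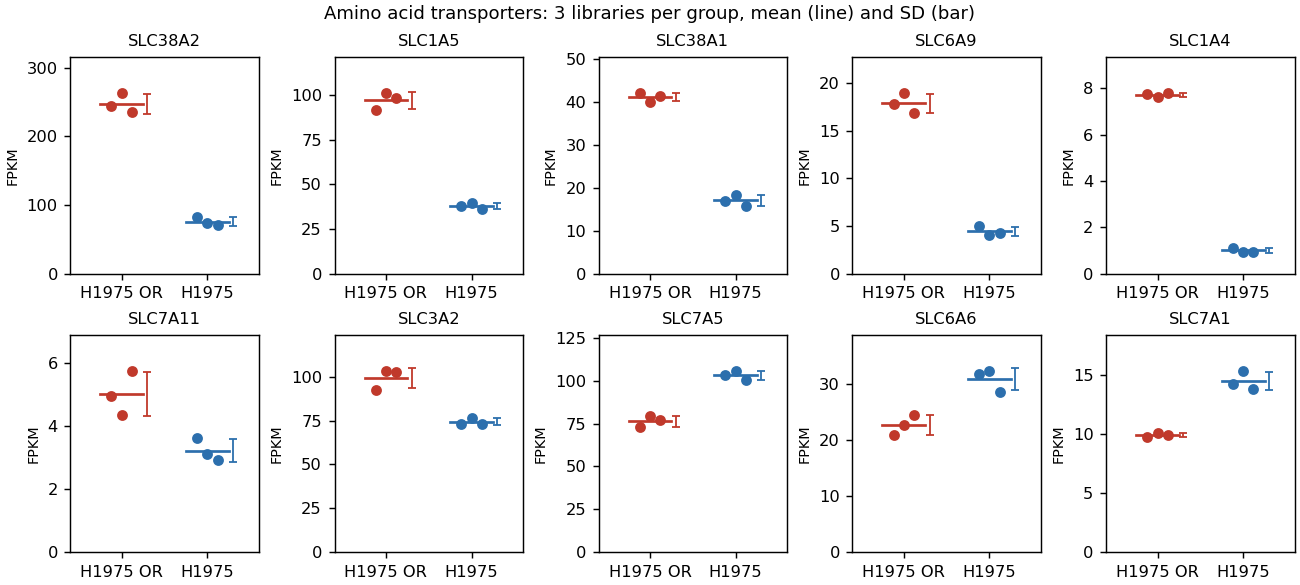
FPKM of 10 amino acid transporters in the 3 libraries of H1975 OR and of H1975, one panel per gene, with points for libraries, a line for the mean and a bar for the SD. SLC38A2, SLC1A5, SLC38A1, SLC6A9, SLC1A4, SLC7A11 and SLC3A2 are higher in all H1975 OR libraries, and SLC7A5, SLC6A6 and SLC7A1 are lower in all of them.

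Promoters of the amino acid transporters were searched for the core of the amino acid response element, through which ATF4 binds, spelled TGATGNAA and read on both strands. The windows ran from 250 bases before to 50 bases after each annotated RefSeq start on GRCh38.p14, and 140 of the 177 members had an entry. A match was found in 6 of the 37 windows of the amino acid class (16.2%), in 12 of the 211 windows of all members (5.69%) and in 1269 of the 35087 windows of all genes (3.62%). The 6 windows belong to SLC1A4, SLC1A5, SLC38A1 and SLC3A2, which rose, to SLC1A3, at 1 FPKM in H1975 OR only, and to SLC7A1, which fell. They are printed because they hold the match beside genes on both sides of the comparison, and the capitals mark the match. A gene can have several annotated starts, and the window shown is 1 of 2 for SLC1A4 and SLC38A1, 1 of 3 for SLC1A5, SLC3A2 and SLC1A3, and the only one for SLC7A1; which start these cells use was not analysed here. A match is a description of these letters and was not tested as a binding site. The windows are on the gene's strand, from 5′ to 3′, at chr2:64989149-64989448 for SLC1A4 (plus strand), chr19:46784765-46785064 for SLC1A5 (minus), chr12:46266467-46266766 for SLC38A1 (minus), chr11:62881449-62881748 for SLC3A2 (plus), chr5:36596338-36596637 for SLC1A3 (plus) and chr13:29595639-29595938 for SLC7A1 (minus).
SLC1A4: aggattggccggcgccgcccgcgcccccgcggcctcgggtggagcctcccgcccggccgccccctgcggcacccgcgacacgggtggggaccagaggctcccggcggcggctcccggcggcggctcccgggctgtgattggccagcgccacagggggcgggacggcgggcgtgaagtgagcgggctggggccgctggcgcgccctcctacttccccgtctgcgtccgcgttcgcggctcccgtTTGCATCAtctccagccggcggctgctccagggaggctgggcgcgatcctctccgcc
SLC1A5: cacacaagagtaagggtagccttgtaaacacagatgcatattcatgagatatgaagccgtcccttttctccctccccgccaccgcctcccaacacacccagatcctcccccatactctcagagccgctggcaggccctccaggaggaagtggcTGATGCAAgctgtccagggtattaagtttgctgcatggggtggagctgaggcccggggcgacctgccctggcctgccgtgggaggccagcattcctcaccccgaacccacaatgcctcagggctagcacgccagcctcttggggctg
SLC38A1: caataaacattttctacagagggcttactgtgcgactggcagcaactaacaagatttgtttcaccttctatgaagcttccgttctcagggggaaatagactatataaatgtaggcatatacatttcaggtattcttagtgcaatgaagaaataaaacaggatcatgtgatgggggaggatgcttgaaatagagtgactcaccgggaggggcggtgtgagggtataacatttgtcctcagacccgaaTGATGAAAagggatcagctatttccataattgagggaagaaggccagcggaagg
SLC3A2: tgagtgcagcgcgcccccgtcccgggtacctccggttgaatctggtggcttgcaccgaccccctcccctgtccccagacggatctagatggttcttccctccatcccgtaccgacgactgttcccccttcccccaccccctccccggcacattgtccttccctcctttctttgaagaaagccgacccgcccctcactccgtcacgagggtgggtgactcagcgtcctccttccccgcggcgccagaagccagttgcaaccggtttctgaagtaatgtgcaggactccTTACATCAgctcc
SLC1A3: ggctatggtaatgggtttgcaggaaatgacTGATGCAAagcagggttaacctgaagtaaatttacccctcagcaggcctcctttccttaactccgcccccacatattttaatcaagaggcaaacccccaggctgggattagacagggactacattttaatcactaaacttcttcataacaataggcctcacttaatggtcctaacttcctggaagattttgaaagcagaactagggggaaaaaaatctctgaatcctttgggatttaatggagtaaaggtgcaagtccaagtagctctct
SLC7A1: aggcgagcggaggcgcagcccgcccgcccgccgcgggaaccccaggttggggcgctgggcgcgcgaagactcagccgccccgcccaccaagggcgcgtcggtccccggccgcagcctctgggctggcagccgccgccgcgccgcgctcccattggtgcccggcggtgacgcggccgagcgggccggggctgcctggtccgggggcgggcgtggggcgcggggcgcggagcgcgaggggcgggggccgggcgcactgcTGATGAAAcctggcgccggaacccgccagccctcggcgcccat
The first match lay 7 bases upstream of the start in SLC1A4, 97 upstream in SLC1A5, 4 upstream in SLC38A1 and 220 upstream in SLC1A3. It lay 37 bases downstream of the start in SLC3A2 and 7 downstream in SLC7A1. The windows of SLC38A2 and SLC6A9 hold no such match.

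In the class of glucose, other sugars and lactate, more members were called lower than higher in H1975 OR, with a large rise in SLC2A6. Of 15 members at 1 FPKM in both groups, 4 rose (26.7%, against 38.7% of all genes), 8 fell (53.3%, against 37.2%) and 3 were not called, with a median log2 difference of −0.25. The summed level of the 18 members was 313 to 351 FPKM in H1975 OR and 352 to 358 FPKM in H1975. The SLC2 hexose facilitators did not fall as a group. Of the 5 tested, 2 rose (40%, near the 38.7% of all genes) and 2 fell (40%, near the 37.2%). The remaining one was not called, and the median log2 difference of these 5 was 0.02. SLC2A1 (chr1:43391052-43424530), the widely expressed glucose transporter GLUT1, had 40.3, 44.0 and 44.2 FPKM in H1975 OR libraries, against 68.6, 67.9 and 65.7 FPKM in H1975 libraries. All resistant values lay below all parental ones, and the log2 difference was −0.64 ± 0.061 (adjusted p = 7.8e-07). SLC16A3 (chr17:80186273-80219005), the lactate exporter MCT4, had 73.4, 87.8 and 80.4 FPKM in H1975 OR and 116, 119 and 125 FPKM in H1975, and fell by 0.58 on the log2 scale (adjusted p = 1.1e-05). It overlaps CSNK1D on the opposite strand over most of its length, and CSNK1D averaged 22.4 FPKM in H1975 OR and 41.7 FPKM in H1975. Whether reads were counted by strand is not given in the sources used here, so the values of overlapping genes cannot be told apart fully.

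The other main lactate carrier, SLC16A1 (MCT1), had 40.5, 45.3 and 44.2 FPKM in H1975 OR and 41, 44.2 and 39.3 FPKM in H1975. These values overlapped and the difference of 0.06 ± 0.068 was not called (adjusted p = 0.413). The high-affinity carrier SLC16A7 (MCT2) was listed at 0 in every H1975 library and had 4.98, 5.69 and 4.83 FPKM in H1975 OR. The chaperones of these carriers, which are not SLC genes themselves, differed in direction. BSG (basigin), the partner of MCT1 and MCT4, averaged 531 FPKM in H1975 OR and 216 FPKM in H1975, a log2 difference of 1.29 (adjusted p = 4.8e-09), and EMB (embigin), the partner of MCT2, averaged 3.98 FPKM in H1975 OR and 12.7 FPKM in H1975, at −1.46 (adjusted p = 4.6e-10).

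SLC2A6 (chr9:136336217-136344259), the hexose transporter family member GLUT6, which resides mainly on internal membranes, had the largest rise in the class. It had 50.2, 54.9 and 52.3 FPKM in H1975 OR, against 6.80, 6.47 and 7.06 FPKM in H1975, a mean ratio of 7.74. The log2 difference was 2.78 ± 0.062 (adjusted p = 1.2e-12). The high-affinity glucose transporter SLC2A3 (GLUT3) had 7.5, 8.27 and 8.87 FPKM in H1975 OR and 7.01, 5.63 and 7.12 FPKM in H1975. The lowest resistant library was only just above the highest parental one, the difference was 0.28 ± 0.088 (adjusted p = 0.0105), and without replicate 2 of H1975 it was 0.19 (adjusted p = 0.0503). SLC2A3 has a near-identical copy, SLC2A14, so that reads may be shared between them. SLC50A1, the SWEET sugar transporter, averaged 43.8 ± 2.37 FPKM in H1975 OR and 35.5 ± 0.804 FPKM in H1975, at 0.29 ± 0.062 (adjusted p = 8.5e-04).

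The sugar phosphate family SLC37 had no member called higher (against 38.7% of all genes). Of its 4 members, 3 were called lower (75%, against 37.2% of all genes), a share that rests on few genes. SLC37A1 (chr21:43916118-44001550), a phosphate-linked glucose-6-phosphate exchanger, had 1.83, 1.71 and 1.75 FPKM in H1975 OR, against 7.13, 7.14 and 6.73 FPKM in H1975. Its log2 difference of −1.53 ± 0.066 was the largest fall of the class (adjusted p = 4.6e-10). SLC37A3 averaged 16.8 ± 0.688 FPKM in H1975 OR and 25 ± 1.13 FPKM in H1975, at −0.55 ± 0.062 (adjusted p = 3.9e-06), and SLC37A4, the glucose-6-phosphate translocase of the endoplasmic reticulum, was not called (adjusted p = 0.0528). The fructose transporter SLC2A5 (GLUT5) was at 1 FPKM in the parental line only, with 0.504, 0.590 and 0.718 FPKM in H1975 OR and 3.24, 2.96 and 2.56 FPKM in H1975. The core letters of the hypoxia response element, ACGTG or GCGTG on either strand, occurred in 16 of 23 windows of the class (69.6%), in 69.2% of the windows of all members and in 48.4% of those of all genes, and the E-box CACGTG holds the first of them on both strands.

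Metal transporters were mostly higher in H1975 OR, and the SLC39 importers accounted for the largest differences in either direction. Of 22 members at 1 FPKM in both groups, 15 rose (68.2%, against 38.7% of all genes), 3 fell (13.6%, against 37.2%) and 4 were not called, with a median log2 difference of 0.44. The summed level of the 23 members was 561 to 599 FPKM in H1975 OR and 383 to 401 FPKM in H1975. Of the 11 SLC39 importers, 8 rose (72.7%) and 2 fell (18.2%), while of the 5 SLC30 exporters 1 rose (20%), 1 fell (20%) and 3 were not called. SLC39A14 (chr8:22224762-22291642), the plasma membrane importer ZIP14 of zinc, manganese and non-transferrin-bound iron, had 80.9, 77.4 and 92.9 FPKM in H1975 OR, against 20.7, 21.2 and 21.0 FPKM in H1975. Every resistant library was at least 3 times the parental mean, and the log2 difference was 1.94 ± 0.071 (adjusted p = 1.1e-10). Its closest relative SLC39A8 (chr4:103172198-103352415), ZIP8, which carries zinc and manganese, had 12.4, 12 and 11.5 FPKM in H1975 OR and 2.44, 2.49 and 3.16 FPKM in H1975. The groups were again apart, at 1.82 ± 0.08 (adjusted p = 5.9e-10). SLC39A8 shares its strand with an overlapping transcript that averaged 2.68 FPKM in H1975 OR and 0.622 FPKM in H1975.

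Importers of the secretory pathway rose as well. SLC39A7 (chr6:33168222-33172216), ZIP7, which releases zinc from the endoplasmic reticulum, had 83.4, 90.3 and 83.7 FPKM in H1975 OR and 34.8, 37 and 34.7 FPKM in H1975, at 1.25 ± 0.061 (adjusted p = 1.5e-09). It overlaps RXRB on the opposite strand, which averaged 18.02 FPKM in H1975 OR and 8.19 FPKM in H1975. SLC39A13 (chr11:47428683-47438047), ZIP13, averaged 25.8 ± 1.10 FPKM in H1975 OR and 9.61 ± 0.921 FPKM in H1975, at 1.34 ± 0.072 (adjusted p = 3.6e-09). The importers that fell were SLC39A4 and SLC39A11. SLC39A4 (chr8:145635126-145642279), ZIP4, known for zinc uptake in the intestine, had 7.86, 9.43 and 7.22 FPKM in H1975 OR, against 26, 21.9 and 23.2 FPKM in H1975, at −1.43 ± 0.092 (adjusted p = 3.9e-08). SLC39A11 (chr17:70642088-71088851), ZIP11, had 5.93, 6.61 and 6.91 FPKM in H1975 OR and 26.1, 25.6 and 23.1 FPKM in H1975. Its difference of −1.79 ± 0.072 was the largest fall of all 149 members on the log2(FPKM + 1) scale (adjusted p = 2.3e-10). By the ratio of H1975 OR to H1975 means, the less abundant SLC37A1 fell slightly further, at 0.252 against 0.260 for SLC39A11. SLC39A1 (ZIP1), among the most abundant members, had overlapping values of 82.8, 93.3 and 86.2 FPKM in H1975 OR and 85.0, 78.6 and 76.4 FPKM in H1975 and was not called (log2 difference 0.13 ± 0.068, adjusted p = 0.106). It was called higher on TPM values (adjusted p = 0.0196) and after quantile normalization (adjusted p = 0.000799).

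On the export side, SLC30A1, the zinc exporter of the plasma membrane and a zinc-responsive gene, had 9.90, 9.78 and 10.1 FPKM in H1975 OR and 12.5, 14.3 and 12.8 FPKM in H1975. It was lower in every resistant library, at −0.37 ± 0.065 (adjusted p = 1.7e-04). Among iron carriers, SLC11A2 (chr12:51373184-51422349), the divalent metal transporter DMT1, averaged 32.6 ± 0.922 FPKM in H1975 OR and 21.0 ± 0.546 FPKM in H1975, a log2 difference of 0.61 ± 0.058 (adjusted p = 7.7e-07). The iron exporter SLC40A1 (ferroportin) lay below the limit in both groups, at a mean of 0.0229 FPKM in H1975 OR and 0.497 FPKM in H1975. Of the iron genes outside the SLC families, the ferritin light chain FTL averaged 1187 FPKM in H1975 OR and 427 FPKM in H1975 (log2 difference 1.47, adjusted p = 4.8e-10), and the transferrin receptor TFRC averaged 120.3 FPKM in H1975 OR and 93.7 FPKM in H1975 (0.36, adjusted p = 3.9e-04). All 3 SLC41 magnesium carriers and the copper importer SLC31A1 rose, by 0.39 to 0.79. The core letters of the metal response element, TGCNCNC on either strand, were in 12 of 31 windows of the metal class (38.7%), against 55.9% of the windows of all genes.

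**Figure D3:**
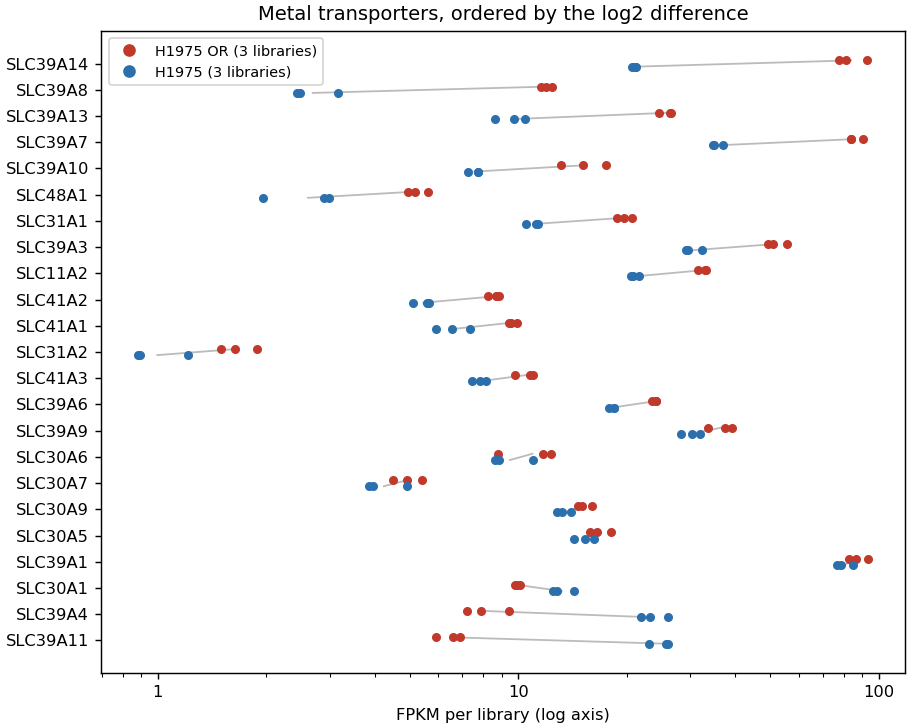
FPKM (log axis) of the 23 metal transporters in each of the 3 libraries of H1975 OR and of H1975, ordered by log2 difference, with grey lines joining the group means. The H1975 OR points lie to the right of the H1975 points for SLC39A14, SLC39A8, SLC39A13 and SLC39A7 and to the left for SLC30A1, SLC39A4 and SLC39A11.

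Nucleoside and nucleobase carriers held the largest rise among all 149 members. SLC43A3 (chr11:57174427-57195053), an equilibrative carrier of purine nucleobases, had 83.1, 85.1 and 80.6 FPKM in H1975 OR, against 8.86, 10.8 and 10.5 FPKM in H1975. All resistant libraries stood far above all parental ones, at a mean ratio of 8.24 and a log2 difference of 2.93 ± 0.074 (adjusted p = 3.5e-12). It overlaps a gene of lower level on the same strand, RP11-872D17.8, which averaged 1.52 FPKM in H1975 OR and 0.0985 FPKM in H1975. SLC29A1 (chr6:44187242-44201888), the equilibrative nucleoside transporter ENT1 that also takes up nucleoside drugs, had 34, 37.8 and 36.9 FPKM in H1975 OR and 15.7, 18.2 and 15.8 FPKM in H1975. It was higher in every resistant library, at 1.08 ± 0.072 (adjusted p = 2.7e-08). Its relative SLC29A2 (ENT2) averaged 5.84 ± 0.240 FPKM in H1975 OR and 4.08 ± 0.295 FPKM in H1975, at 0.43 ± 0.069 (adjusted p = 9.5e-05). The lysosomal transporter SLC29A3 (ENT3) went the other way, with 2.22, 2.29 and 2.52 FPKM in H1975 OR and 6.14, 7.0 and 5.52 FPKM in H1975, at −1.11 ± 0.083 (adjusted p = 8.3e-08).

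Thus 3 of the 4 tested members of this class rose (75%, against 38.7% of all genes) and 1 fell (25%, against 37.2%), and the summed level of its 6 members was 129 to 135 FPKM in H1975 OR and 38.8 to 43.8 FPKM in H1975. SLC43A3 provided most of that sum in the resistant cells. The vesicular nucleotide transporter SLC17A9 was at 1 FPKM in the resistant line only, averaging 3.18 ± 0.277 FPKM in H1975 OR and 0.00926 ± 0.00331 FPKM in H1975, and SLC29A4, which also carries monoamines, was so in the parental line only, averaging 0.474 ± 0.188 FPKM in H1975 OR and 3.94 ± 0.588 FPKM in H1975. Both are described without a test.

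**Figure D4:**
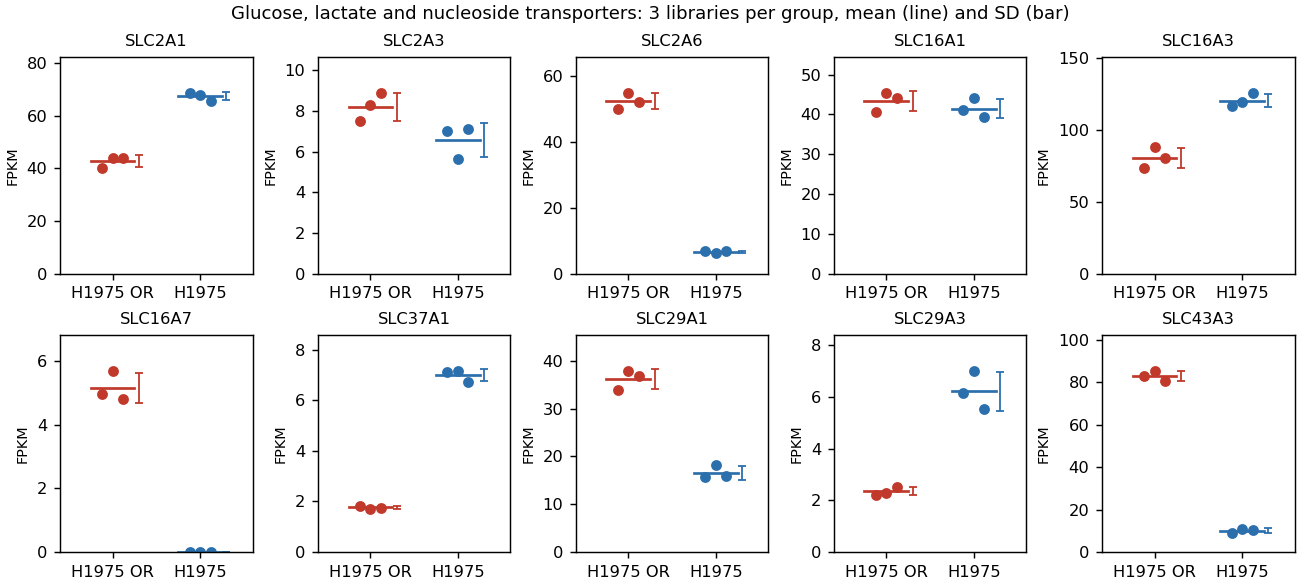
FPKM of glucose, lactate and nucleoside transporters in the 3 libraries of H1975 OR and of H1975, one panel per gene, with points for libraries, a line for the mean and a bar for the SD. SLC2A6 and SLC43A3 are higher in all H1975 OR libraries by several fold, SLC2A1 and SLC16A3 are lower in all of them, and the SLC16A1 values overlap.

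Of the 37 tested members of the mitochondrial SLC25 family, 13 were called higher (35.1%), 16 lower (43.2%) and 8 were not called, with a median log2 difference of −0.04. These shares lay near the 38.7% and 37.2% of all genes. The summed level of all 39 was 1260 to 1370 FPKM in H1975 OR and 1411 to 1533 FPKM in H1975. Among its most abundant members were the ADP/ATP carriers SLC25A5 and SLC25A6 and the phosphate carrier SLC25A3, which serve oxidative phosphorylation. None of the 3 differed by more than 0.32 on the log2 scale. SLC25A39, of similar abundance, fell by 0.91, from a mean of 223 FPKM in H1975 to 118 FPKM in H1975 OR. SLC25A5 (ANT2) had 354, 401 and 349 FPKM in H1975 OR and 477, 433 and 423 FPKM in H1975, at −0.27 ± 0.076 (adjusted p = 0.0058). SLC25A6 (ANT3) had 161, 179 and 182 FPKM in H1975 OR and 150.3, 136 and 131 FPKM in H1975, at 0.32 ± 0.073 (adjusted p = 0.00147). SLC25A4 (ANT1) averaged 5.52 ± 0.632 FPKM in H1975 OR and 6.10 ± 1.21 FPKM in H1975, with overlap and no call (adjusted p = 0.433), though without replicate 3 of H1975 it was called lower, at −0.26 (adjusted p = 0.0231). The 3 ADP/ATP carriers thus gave 1 fall, 1 rise and 1 without a call, and they are similar enough in sequence that reads may be shared. The phosphate carrier SLC25A3 averaged 178 ± 2.10 FPKM in H1975 OR and 157 ± 6.99 FPKM in H1975 (log2 difference 0.18 ± 0.061, adjusted p = 0.0184), and its call was lost without replicate 3 of H1975 (adjusted p = 0.0618).

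The largest falls in the family were in carriers of dicarboxylates, citrate, aspartate and ornithine. SLC25A10 (chr17:79670404-79688042), the dicarboxylate carrier of malate and succinate, had 9.97, 10.5 and 9.23 FPKM in H1975 OR, against 30.7, 32.7 and 30.5 FPKM in H1975, at −1.57 ± 0.064 (adjusted p = 2.9e-10). It overlaps MRPL12 on the same strand, and MRPL12 averaged 48.6 FPKM in H1975 OR and 111.6 FPKM in H1975, so that the values of this pair are uncertain. SLC25A13 (chr7:95749532-95951459), citrin, the aspartate/glutamate carrier of the malate-aspartate shuttle, had 18.5, 18.4 and 16.9 FPKM in H1975 OR and 48.6, 49.2 and 42.6 FPKM in H1975. It was lower in every resistant library, at −1.33 ± 0.071 (adjusted p = 3.1e-09). The other aspartate/glutamate carrier, SLC25A12, fell by 0.21 (adjusted p = 0.00785).

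SLC25A1 (chr22:19163095-19166343), the citrate carrier that supplies cytosolic citrate for lipid synthesis, had 31.3, 35.8 and 36.4 FPKM in H1975 OR and 76.2, 70.6 and 70.3 FPKM in H1975, at −1.05 ± 0.071 (adjusted p = 3.0e-08). SLC25A15, the ornithine carrier of the urea cycle, averaged 3.19 ± 0.307 FPKM in H1975 OR and 7.15 ± 0.648 FPKM in H1975, at −0.96 ± 0.081 (adjusted p = 2.4e-07). SLC25A39 (chr17:42396993-42402238), which imports glutathione into mitochondria, was more abundant than SLC25A1, SLC25A10, SLC25A13 and SLC25A15. It had 109, 126 and 120.2 FPKM in H1975 OR, against 226, 229 and 212 FPKM in H1975, at −0.91 ± 0.069 (adjusted p = 9.7e-08). SLC25A51, the NAD+ carrier, fell by 0.81 and SLC25A32, the folate and FAD carrier, fell by 0.63.

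The rises in the family included carriers of basic amino acids and iron and 1 ATP-Mg carrier. SLC25A29 (chr14:100757448-100772884), which carries arginine and lysine, had 19, 20.5 and 22.2 FPKM in H1975 OR, against 5.37, 5.45 and 6.03 FPKM in H1975, and was higher in every resistant library at 1.70 ± 0.071 (adjusted p = 3.5e-10). SLC25A37 (chr8:23386318-23432976), the iron carrier mitoferrin-1, had 48.7, 49.7 and 58.6 FPKM in H1975 OR and 25.3, 25.1 and 27.1 FPKM in H1975, at 0.99 ± 0.075 (adjusted p = 9.8e-08). Its relative mitoferrin-2, SLC25A28, rose by 0.38 (adjusted p = 9.0e-05). SLC25A23, a calcium-regulated ATP-Mg/phosphate carrier, averaged 36.5 ± 2.73 FPKM in H1975 OR and 18.9 ± 1.33 FPKM in H1975, at 0.91 ± 0.073 (adjusted p = 1.5e-07). It overlaps CRB3 on the opposite strand, which averaged 0.0627 FPKM in H1975 OR and 15.1 FPKM in H1975. Of the relatives of SLC25A23, SLC25A24 fell by 0.46 (adjusted p = 2.8e-05) and SLC25A25 was not called (adjusted p = 0.29). SLC25A20, the carnitine/acylcarnitine carrier of fatty acid oxidation, averaged 8.71 ± 0.952 FPKM in H1975 OR and 5.90 ± 0.277 FPKM in H1975, at 0.49 ± 0.078 (adjusted p = 8.4e-05). SLC25A27 (UCP4) was at 1 FPKM in the resistant line only, averaging 4.88 ± 1.09 FPKM in H1975 OR and 0.263 ± 0.0763 FPKM in H1975. SLC25A45 was so too, at 2.17 ± 0.167 FPKM in H1975 OR and 0.443 ± 0.0926 FPKM in H1975. The mitochondrial pyruvate carrier is not an SLC25 protein, and of its subunits MPC1 rose by 0.44 (adjusted p = 0.00586) while MPC2 was not called (adjusted p = 0.0669).

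**Figure D5:**
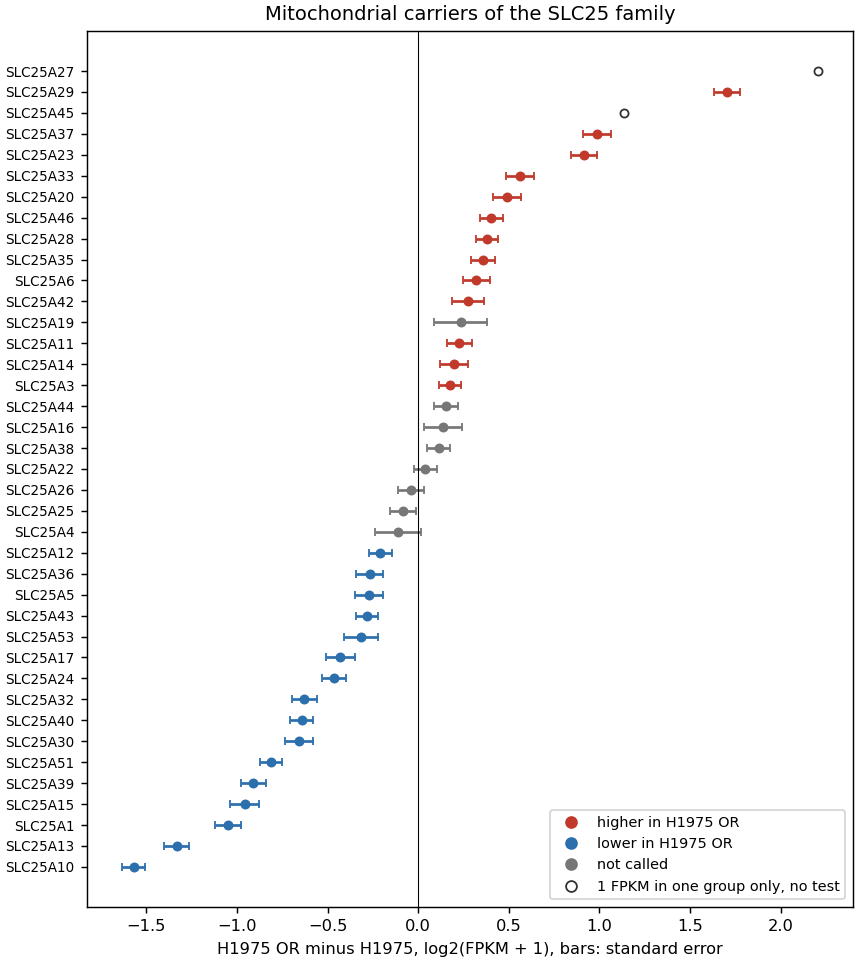
Log2 difference (H1975 OR minus H1975, on log2(FPKM + 1), with SE bars) of the 39 mitochondrial SLC25 carriers, ordered by size, with SLC25A27 and SLC25A45, at 1 FPKM in H1975 OR only, as open points without SE. The filled points run from SLC25A29 at 1.70 down to SLC25A10 at −1.57, with 13 called higher and 16 called lower.

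Ion and acid-base carriers had 12 rises (60%, against 38.7% of all genes) and 7 falls (35%, near the 37.2% of all genes) among 20 tested members, with a median log2 difference of 0.28. The summed level of the class was 237 to 254 FPKM in H1975 OR and 231 to 244 FPKM in H1975. SLC26A2, a sulfate transporter, averaged 9.33 ± 0.355 FPKM in H1975 OR and 3.30 ± 0.180 FPKM in H1975, at 1.27 ± 0.066 (adjusted p = 2.5e-09). All 7 cation-chloride cotransporters of the SLC12 family were called, 5 higher (71.4%) and 2 lower (28.6%). The potassium/chloride cotransporter SLC12A7 (KCC4) had 3.53, 3.93 and 4.04 FPKM in H1975 OR and 9.54, 10.1 and 9.32 FPKM in H1975, at −1.14 ± 0.068 (adjusted p = 9.1e-09), while its relative SLC12A4 (KCC1) rose by 0.48 (adjusted p = 1.4e-05). SLC12A9 averaged 7.90 ± 0.601 FPKM in H1975 OR and 17.7 ± 0.486 FPKM in H1975, at −1.07, and overlaps EPHB4 on the opposite strand, which averaged 20.4 FPKM in H1975 OR and 55.4 FPKM in H1975. SLC12A2 (NKCC1), the sodium/potassium/chloride cotransporter, rose by 0.56 (adjusted p = 1.2e-05).

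SLC12A8 rose by 0.74 (adjusted p = 0.00124), with 4.28, 6.86 and 6.67 FPKM in H1975 OR and 3.03, 3.01 and 3.21 FPKM in H1975. Replicate 1 of H1975 OR was the lowest of its group, and the gene shares its strand with ZNF148, which overlaps it and averaged 9.84 FPKM in H1975 OR and 11.6 FPKM in H1975. The potassium-dependent sodium/calcium exchanger SLC24A4 averaged 3.11 ± 0.152 FPKM in H1975 OR and 6.52 ± 0.701 FPKM in H1975, at −0.87 ± 0.078 (adjusted p = 4.8e-07). The alveolar sodium/phosphate cotransporter SLC34A2, a gene of type II pneumocytes, was below the limit at means of 0.0138 FPKM in H1975 OR and 0.0938 FPKM in H1975. The chloride/bicarbonate exchanger SLC4A3 was at 1 FPKM in the parental line only, with 0.151, 0.200 and 0.185 FPKM in H1975 OR and 4.03, 3.63 and 4.13 FPKM in H1975.

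The 6 members of the secretory pathway, 5 of the SLC35A subfamily and SLC33A1, gave 4 rises (66.7%, against 38.7% of all genes) and 1 fall (16.7%, against 37.2%), none by 1 on the log2 scale, and their summed level was 93.4 to 101.3 FPKM in H1975 OR and 78.3 to 81.6 FPKM in H1975. SLC35A4, of the nucleotide sugar transporter family, averaged 31.7 ± 2.18 FPKM in H1975 OR and 20.8 ± 1.43 FPKM in H1975, at 0.59 ± 0.071 (adjusted p = 7.2e-06). It overlaps APBB3 on the opposite strand, which averaged 5.22 FPKM in H1975 OR and 1.79 FPKM in H1975. SLC33A1, which brings acetyl-CoA into the endoplasmic reticulum, rose by 0.48 (adjusted p = 7.7e-05), and SLC35A3, the UDP-N-acetylglucosamine carrier of the Golgi, rose by 0.29 (adjusted p = 0.00135). SLC35A5 had 9.80, 6.65 and 9.93 FPKM in H1975 OR and 6.07, 4.20 and 6.35 FPKM in H1975, at 0.58 ± 0.19 (adjusted p = 0.0327). In both groups replicate 2 was the lowest, and leaving out replicate 1 of H1975 or replicate 1 or 3 of H1975 OR ended the call (adjusted p = 0.0698, 0.0992 and 0.121). SLC35A1, the CMP-sialic acid carrier, averaged 7.80 ± 0.700 FPKM in H1975 OR and 12.3 ± 0.580 FPKM in H1975, at −0.60 ± 0.072 (adjusted p = 6.6e-06).

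Among the 27 tested carriers of vitamins, lipids, organic ions and other substrates, 15 rose (55.6%, against 38.7% of all genes), 8 fell (29.6%, against 37.2%) and 4 were not called. By 1 or more on the log2 scale, 7 rose (25.9%, against 7.66% of all genes) and none fell (against 6.67%). The summed level of the 38 members was 370 to 395 FPKM in H1975 OR and 294 to 303 FPKM in H1975. The myo-inositol transporter SLC5A3 (chr21:35445870-35478559) had 16.9, 17.9 and 16.1 FPKM in H1975 OR, against 3.74, 3.78 and 3.71 FPKM in H1975, at 1.92 ± 0.062 (adjusted p = 3.5e-11). It overlaps MRPS6 on the same strand, which averaged 82.9 FPKM in H1975 OR and 50.5 FPKM in H1975. Myo-inositol, betaine and taurine serve cells as organic osmolytes, and the betaine transporter SLC6A12 was at 1 FPKM in the resistant line only, with 5.65, 8.62 and 6.99 FPKM in H1975 OR and 0.268, 0.261 and 0.370 FPKM in H1975. The proton-coupled myo-inositol transporter SLC2A13 was so too, averaging 3.61 ± 0.119 FPKM in H1975 OR and 0.262 ± 0.0209 FPKM in H1975, while the taurine transporter SLC6A6 fell, as given above. SLC17A5 (chr6:74303102-74363878), sialin, which exports sialic acid from lysosomes, had 8.39, 9.10 and 8.39 FPKM in H1975 OR and 1.62, 1.48 and 1.62 FPKM in H1975. The groups were far apart, at 1.90 ± 0.068 (adjusted p = 8.6e-11). SLC16A13, a monocarboxylate family member, averaged 13.3 ± 0.662 FPKM in H1975 OR and 3.94 ± 0.155 FPKM in H1975, at 1.53.

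The choline-transporter-like genes went in opposite directions. SLC44A2 (chr19:10713133-10755235) had 121, 124 and 124 FPKM in H1975 OR and 55.7, 57.1 and 58.1 FPKM in H1975, at 1.10 ± 0.057 (adjusted p = 2.6e-09). SLC44A1 averaged 11 ± 0.929 FPKM in H1975 OR and 19.9 ± 0.289 FPKM in H1975, at −0.81 ± 0.067 (adjusted p = 2.2e-07). All 4 tested members of the SLC22 family of organic cation and anion transporters rose, beside 38.7% of all genes. The fatty acid transport protein SLC27A4 fell by 0.79 (adjusted p = 2.2e-07), to 17.5 ± 1.23 FPKM in H1975 OR against 30.9 ± 1.09 FPKM in H1975, while SLC27A1 of the same family rose by 1.15 (adjusted p = 2.4e-06), to 4.38 ± 0.991 FPKM in H1975 OR against 1.40 ± 0.0936 FPKM in H1975. A further member, SLC27A3, was at 1 FPKM in the parental line only, with 0.491, 0.485 and 0.637 FPKM in H1975 OR and 7.48, 7.48 and 7.05 FPKM in H1975. The reduced folate carrier SLC19A1 rose by 0.46 (adjusted p = 3.4e-05) and overlaps COL18A1 on the opposite strand, which averaged 8.22 FPKM in H1975 OR and 14.3 FPKM in H1975. SLC10A3 averaged 18.7 ± 3.29 FPKM in H1975 OR and 30.1 ± 2.21 FPKM in H1975, at −0.67 (adjusted p = 4.0e-04).

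Across all classes, 28 of the 177 members were at 1 FPKM in 1 group only, 20 in H1975 OR and 8 in H1975. Of the 12107 genes at 1 FPKM in either group, 1278 were so, 660 in H1975 OR and 618 in H1975. SLC1A3 and SLC16A7 were listed at 0 in every parental library, and no member was listed at 0 in every resistant one. By chromosome, all 8 members tested on chromosome 12 were called higher, where the median of all 568 genes was 0.04 and 40.7% of them were called higher. On chromosome 7, 4 of 5 members were called lower, and 72.4% of all 500 genes tested there were called lower as well, with a median of −0.55. All 3 members on chromosome 13 were called lower, beside 66.1% of all 165 genes there. On chromosome X, 7 of 11 members were called lower and 3 higher, beside 32.3% and 46% of all 350 genes there. On chromosome 22, 3 of 4 members were called lower and none higher, beside 31.6% and 41.8% of all 275 genes there. The other chromosomes are not described here.

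A further 63 transport genes outside the chosen symbols, among them organic anion transporters, iron storage genes and mitochondrial channels, had 45 at 1 FPKM in both groups, of which 21 were called higher (46.7%, against 38.7% of all genes), 12 lower (26.7%, against 37.2%) and 12 not. Among them are the nucleotide sugar and related SLC35 genes with letters other than A. SLC35B3 averaged 15.1 FPKM in H1975 OR and 6.995 FPKM in H1975, at 1.01 on the log2 scale, SLC35E4 averaged 7.97 FPKM in H1975 OR and 3.40 FPKM in H1975, at 1.02, and SLC35E1 averaged 22.6 FPKM in H1975 OR and 11.5 FPKM in H1975, at 0.92. SLC35D2 averaged 7.72 FPKM in H1975 OR and 12.6 FPKM in H1975, at −0.65 (adjusted p = 2.3e-06), and SLC35F3 was listed at 0 in every H1975 OR library and averaged 2.41 FPKM in H1975. The organic anion transporter SLCO4A1 averaged 48.6 FPKM in H1975 OR and 21.3 FPKM in H1975, at 1.15 on the log2 scale (adjusted p = 1.3e-07). SLCO2A1, the prostaglandin transporter, averaged 0.00363 FPKM in H1975 OR and 22.0 FPKM in H1975 and is described without a test. The lysosomal cholesterol transporter NPC1 averaged 17.6 FPKM in H1975 OR and 32.6 FPKM in H1975, at −0.84 (adjusted p = 5.2e-07), and the outer membrane channel VDAC2 averaged 128.7 FPKM in H1975 OR and 169.9 FPKM in H1975, at −0.40 (adjusted p = 1.0e-04).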

How the data were processed

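The authors sequenced messenger RNA of 3 H1975 OR and 3 H1975 libraries and deposited 1 table of FPKM values for the series and, per library, FPKM, TPM and coverage values for each gene, named in the file headers. The submitters' processing notes name GRCh37 and DESeq, without a version. The aligner, and whether strand was used in counting, is not given in the sources used here. FPKM divides fragments by transcript length and by mapped fragments, so a gene's level is relative to the rest of its library. The deposited coverage served only the depth estimate, and read counts were not analysed here.

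Levels were analysed as log2(FPKM + 1), which understates the change of low genes. With FPKM only, no count model was run. The test was limma 3.58.1 in R 4.3.3 with trend and robust variance, a pseudocount of 1, all 6 libraries and no covariates, Benjamini-Hochberg adjustment over 12107 genes averaging 1 FPKM or more in at least 1 group, and an adjusted p under 0.05. No call was made for members at 1 FPKM in 1 group only. An exact permutation test of 3 against 3 libraries cannot go below p = 0.1 (two-sided), so none is given. The fit was also run on simulated data in which a small share of genes was changed by known amounts. In the real data 9448 of 12107 genes were called, a setting that the simulation did not cover.

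The members, substrate classes and other gene lists were chosen with earlier results of these data known. Named are, in each class, up to 4 members with the largest rise and up to 4 with the largest fall among those at 5 FPKM or more in their higher group whose groups did not overlap, the 10 most abundant members, and fixed genes such as SLC7A11, SLC2A1, SLC30A1, SLC40A1 and SLC34A2; further members named for their family or role were picked after their values were seen. The second rows of SLC25A10 and SLC5A3 in the table, below 1 FPKM, were not members. Alternatives were other pseudocounts, filters, TPM, median-of-ratios scaling, quantile normalization, plain limma, a replicate block and leaving out each library. Promoters came from RefSeq on GRCh38.p14 and were matched by symbol. Some members that the naming rule picks are not reported here.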

Additional observations from a re-analysis of the deposited data

Results flagged for a closer look

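The antisense transcript SLC16A1-AS1 is outside the series' table and appeared only in the tables of single libraries. Its mean was 2.37 FPKM in H1975 OR, with 2.50, 2.39 and 2.23 FPKM in replicates 1 to 3, and 1.95 FPKM in H1975, with 1.92, 1.86 and 2.08 FPKM. The groups did not overlap, and the difference was not tested. The gene, on the opposite strand at chr1:113499037-113542118 (GRCh37), overlaps SLC16A1 over 599 bases.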

How the results depend on the processing

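Under the 16 alternatives, the counts of members called higher and lower, in all and in each class, stayed within 1.5 times the reported ones. Members called higher numbered 72 to 84 and members called lower 48 to 50. Of 66 named members with a test, 61 kept their direction and call throughout, and none reversed. The exceptions, SLC2A3, SLC39A1, SLC25A3, SLC25A4 and SLC35A5, are given in the report, and the cause was not tested. Same-numbered libraries deviated together with correlations of −0.135, 0.0761 and 0.0990, beside −0.161 to 0.0782 for differently numbered ones. Such values cannot show whether same-numbered libraries were handled together, and the main fit used no pairing. With a replicate block, 81 members were called higher and 49 lower, and 9422 genes in all instead of 9448. Leaving out 1 library at a time, members called higher numbered 72 to 81. FPKM without read counts limit what can be said of members near 1 FPKM, whose counting error is unknown.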

Other observations

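The core letters of the antioxidant response element, TGACNNNGC on either strand, were in 35 of the 211 promoter windows of the members (16.6%) and in 13.4% of the windows of all genes. Across the classes, their share ran from 0 of 4 windows of the nucleoside class to 8 of 34 windows (23.5%) of the carriers of vitamins, lipids, organic ions and others. The matches are given as a description, without a test.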
